A study of Mus musculus with 2 samples.

Results

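Kinesins are motor proteins that step along microtubules on energy from ATP. In dividing cells some of them build the spindle, move chromosomes and split the cell at cytokinesis, and in neurons others carry vesicles, mitochondria and RNA along axons and dendrites. Purkinje cells are postmitotic neurons with a large dendritic tree and a long axon, whereas granule neuron progenitors still divide in the cerebellum of mice in the first postnatal week.

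The kinesin genes were taken by name, as every gene whose symbol in the platform annotation begins with Kif or Kifc followed by a digit, on probe sets that name 1 gene. This gave 40 of the 19503 genes with a value, measured by 45 probe sets. By the known role of the protein, 12 were counted as mitotic, 17 as transport kinesins, 6 as kinesins of cilia and hedgehog signalling, and 5 as other. The last group includes Kif4-ps, a pseudogene that RefSeq lists as transcribed, which the naming pattern also takes. Cenpe, a kinesin under another name, stands with the partner genes below.

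RNA came from pooled cerebella of Tg(Pcp2-L10a-Egfp) mice at postnatal day 7 (P7). In these mice the promoter of the Purkinje cell gene Pcp2 drives ribosomal protein L10a fused to a green fluorescent protein. Translating ribosome affinity purification (TRAP) collected tagged ribosomes on antibody-coated beads, and the Unbound sample is RNA that the beads left behind, so both samples carry the transgene and come from the same kind of preparation. The number of animals pooled is not given in the sources used here, and no untagged control is used here. Each fraction was measured on 1 whole-transcript array, so there is no replicate, no test and no p-value, and each difference is one between 2 arrays.

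Values are the deposited log2 expression values. A difference is TRAP minus unbound on that scale, and a gene is called TRAP-high or unbound-high when that fraction is ahead by 2-fold or more, a difference of 1 in size. The pooled median of the probe set values, 7.08, serves as a mark for low values, since the table holds no detection calls. Subtracting each array's own median would raise every difference by 0.33. The array medians were 6.92 for TRAP and 7.25 for unbound.

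The labelled cell type was checked on markers. Of 12 listed Purkinje cell markers, 10 had a value and all 10 read higher in TRAP, the median difference being 1.19. Of the 10, 6 were TRAP-high, against 4.58% of all genes. Pcp2 itself read 12.98 in TRAP and 11.65 in unbound. Most markers of other cells read lower in TRAP, the exceptions being the granule neuron gene Grin2c and 3 ependymal genes. Some were still above the mark there. Of 8 granule neuron progenitor markers, all 8 had a TRAP value above 7.08, and 4 were unbound-high, against 11.0% of all genes.

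The short promoter stretches of 7 kinesin genes are printed first, because the mitotic and transport groups, which separate in the measured values below, also differ in how often they hold short letter patterns that the naming rule did not use. The patterns are the cell cycle genes homology region (CHR), searched as TTTGAA or TTCGAA, and the CCAAT box, searched as CCAAT, both on either strand. Proteins of the DREAM complex are known to act through CHR elements and the factor NF-Y through CCAAT boxes in cell cycle promoters. RefSeq promoter windows of GRCm38.p6, with 250 bases before and 50 after the annotated start, matched 31 of the 40 genes. Each line gives the last 80 bases before the start, 5′ to 3′ on the strand of the gene, with matches in capitals (TTCAAA and ATTGG are the reverse-strand forms).
Kif11, chr19:37376302-37376381, plus strand: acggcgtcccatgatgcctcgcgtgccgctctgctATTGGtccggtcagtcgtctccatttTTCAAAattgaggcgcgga
Kif22, chr7:127042421-127042500, minus strand: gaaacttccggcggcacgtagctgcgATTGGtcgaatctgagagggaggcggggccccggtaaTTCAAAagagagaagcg
Kif15, chr9:122951001-122951080, plus strand: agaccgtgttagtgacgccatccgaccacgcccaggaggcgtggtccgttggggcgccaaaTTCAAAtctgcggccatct
Kif18b, chr11:102925125-102925204, minus strand: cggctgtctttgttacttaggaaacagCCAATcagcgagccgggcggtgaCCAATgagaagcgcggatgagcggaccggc
Kif24, chr4:41464849-41464928, minus strand: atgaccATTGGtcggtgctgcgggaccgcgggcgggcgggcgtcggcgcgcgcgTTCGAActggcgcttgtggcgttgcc
Kif3b, chr2:153291336-153291415, plus strand: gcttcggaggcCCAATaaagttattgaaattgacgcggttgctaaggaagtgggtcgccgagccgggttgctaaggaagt
Kif17, chr4:138262171-138262250, plus strand: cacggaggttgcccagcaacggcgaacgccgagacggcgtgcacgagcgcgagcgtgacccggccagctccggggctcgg

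The first 4 are mitotic kinesins, and Kif24 belongs to the cilium group. The last 2 are transport kinesins, Kif17 being the kinesin with the highest TRAP value relative to unbound. In Kif11 and Kif15 the CHR letters begin 19 bases before the start, and in Kif22 17 bases before it. In Kif18b they begin 3 bases after the first transcribed base and so lie outside the printed stretch. The mitotic stretches printed all hold a match and do not stand for the group. Among those not printed, Kif14, Kif18a, Kif20b and Kif2c hold neither pattern in the same 80 bases. Kif2b, Kif4 and Kif23 hold a CCAAT box there but no CHR letters.

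Mitotic kinesins were nearly all lower in TRAP than in unbound RNA. Of 12 genes, 11 were unbound-high, and 9 of them by 4-fold or more. Of all 19503 genes, 11.0% were unbound-high and 2.37% by 4-fold or more. Their median difference was -2.22, against 0.10 for all genes. Every TRAP value of the group was at or below 6.63, under the mark of 7.08, whereas 11 of the 12 unbound values lay above it, between 7.13 and 9.32. These 11 genes are above the mark through the unbound array alone, and because the TRAP side lies in the low range their folds are uncertain.

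Bipolar spindles depend on Kif11, the Eg5 motor that slides antiparallel microtubules apart, and on Kif15, which can share that work. Kif11 (probe set 10462796) read 6.63 in TRAP and 9.32 in unbound, 6.42-fold apart and the lowest difference of the 40 kinesins. Kif15 read 5.34 and 7.90, which are 5.92-fold apart. Both spindle-sliding motors stood near the low end of the differences, with 0.461% of all genes having a lower difference than Kif11 and 0.656% than Kif15.

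Kinesins that shorten microtubules or dampen chromosome movement gave values of the same size. Kif18b read 6.48 in TRAP and 9.09 in unbound, 6.10-fold apart, and Kif18a, its kinesin-8 relative at kinetochore microtubules, read 5.14 and 7.22. Kif2c, the kinetochore depolymerase MCAK, read 6.26 and 8.78, which are 5.73-fold apart. Its kinesin-13 relatives did not share this. Kif2a, a depolymerase also found in neurons and counted as other here, read 10.24 and 10.33, which leaves a gap of 2.42 between the differences of Kif2a and Kif2c. Kif2b read 4.54 in TRAP and 4.15 in unbound, both far below the mark, and was the only mitotic kinesin with the higher value in TRAP.

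Chromosome arms are pushed by the chromokinesins Kif22 and Kif4. Kif22 read 5.98 in TRAP and 8.09 in unbound, and Kif4 read 5.80 and 7.43, differences of -2.10 and -1.64. Kif4-ps gave 5.25 and 5.29, low on both arrays. A pseudogene copy can share sequence with its parent gene, so the signals of the pair are not certain to be separate.

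Cytokinesis kinesins completed the group. Kif20a, which brings the chromosomal passenger complex to the midzone, read 6.34 and 8.57. Kif23, the motor of centralspindlin, read 6.30 and 8.52, and Kif20b, which acts in abscission, read 4.61 and 7.20. All 3 belong to the kinesin-6 family, and their differences ran from -2.59 to -2.22. Kif14, which acts with citron kinase late in cytokinesis, had the smallest difference of the unbound-high genes, -1.13, with 7.13 in unbound. It fell short of 2-fold with the array medians subtracted (-0.80) and after quantile normalization (-0.95).

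**Figure D1:**
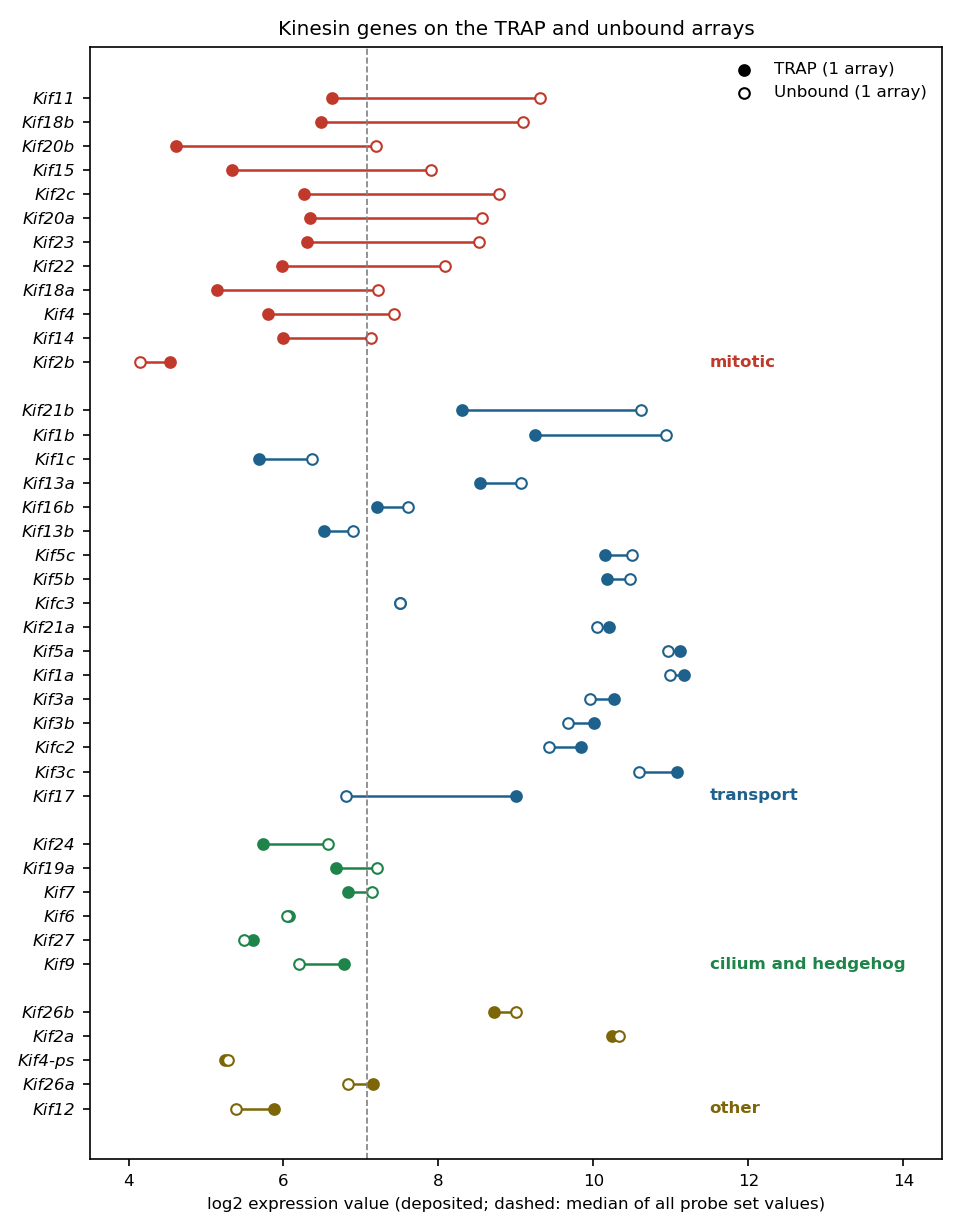
The log2 expression values of the 40 kinesin genes, 1 row per gene, with filled points for the TRAP array and open points for the unbound array, grouped by role and ordered by difference; the dashed line is the pooled median, 7.08. The 11 mitotic kinesins from Kif11 to Kif14 have the TRAP point left of the line and the unbound point right of it, while most transport kinesins have both points close together on the right.

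Transport kinesins as a group did not lean to either fraction. Of 17 genes, 2 were unbound-high, 1 was TRAP-high, and 14 lay within 2-fold, a share of 82.4% against 84.4% of all genes. Of all genes 11.0% were unbound-high and 4.58% TRAP-high, so the counts of this group were near the background. With the array medians subtracted those shares of all genes became 6.80% and 10.1%, and the counts of transport kinesins were the same. Their median difference was 0.01, or -0.29 over the 13 genes of the kinesin-1, kinesin-2 and kinesin-3 families alone, and 9 of the 17 read higher in TRAP. On both arrays 14 of the 17 lay above the mark. The medians of the mitotic and transport groups were 2.23 apart on the log2 scale, a 4.68-fold gap. Of the transport kinesins, 15 had a higher difference than every mitotic kinesin but Kif2b, and the other two are Kif21b and Kif1b.

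**Figure D2:**
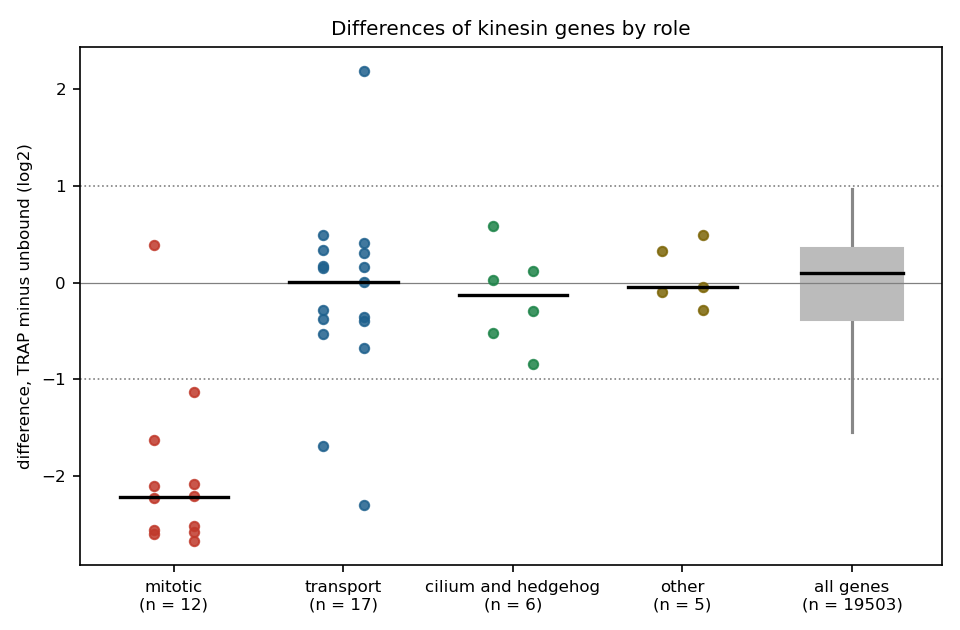
Difference between the arrays (TRAP minus unbound, log2) for each kinesin gene by role, with 1 point per gene and a black bar at the median; the grey box spans the 25th to 75th percentile of all 19503 genes and its line the 5th to 95th, and dotted lines mark 2-fold. The mitotic points lie between -2.68 and -1.13 apart from Kif2b at 0.39. The transport points centre on 0.01, with Kif17 at 2.20, Kif21b at -2.30 and Kif1b at -1.70 far from the others.

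Kif17 was the only TRAP-high kinesin. It is a homodimeric kinesin-2 motor known to carry NMDA receptor subunit cargo into dendrites and to enter cilia. Kif17 (probe set 10509526) read 9.01 in TRAP and 6.81 in unbound, 4.58-fold apart, and 0.185% of all genes had a higher difference. Its unbound value lay below the mark. The difference was between 2.20 and 2.53 under the 4 scalings of the arrays.

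The heterotrimeric kinesin-2 genes leaned the same way by less. Kif3a, the common motor subunit, read 10.26 in TRAP and 9.96 in unbound. Its alternative partners Kif3b and Kif3c read 10.01 against 9.67 and 11.08 against 10.58. Differences of 0.30, 0.34 and 0.50 are under 2-fold, and 29.8%, 26.7% and 16.3% of all genes had a higher difference than Kif3a, Kif3b and Kif3c. Kifap3, the accessory subunit that links this motor to cargo and was singled out after its value was seen, differed by 0.46. The 3 motor subunits had a positive difference under each of the 4 scalings.

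Conventional kinesin, the kinesin-1 motor of fast axonal transport, was nearly equal in both fractions. Kif5a, expressed in neurons, read 11.12 in TRAP and 10.96 in unbound. Kif5b, the form of most tissues, read 10.18 and 10.47, and Kif5c, another neuronal form, read 10.14 and 10.50. The family spanned 0.52 from Kif5c at -0.36 to Kif5a at 0.16, and subtracting the array medians made the difference of Kif5b positive, 0.04. The probe sets of Kif5a and Kif5c share 1 transcript accession in the annotation, so their signals are not certain to be separate.

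Kinesin-3 motors carry synaptic vesicle precursors, dense core vesicles and endosomes, and here they differed among themselves. Kif1a, the vesicle motor of axons, read 11.16 in TRAP and 10.99 in unbound. Kif1b, whose isoforms carry mitochondria and vesicle precursors, read 9.24 and 10.94, 3.24-fold more in unbound (probe set 10518585). The gap between the differences of these close relatives was 1.87 on the log2 scale, and 4.07% of all genes had a lower difference than Kif1b. The single probe set of Kif1b does not separate its isoforms.

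The remaining kinesin-3 genes read lower in TRAP by less than 2-fold. Kif13a, a motor of endosomes and the trans-Golgi network, read 8.53 and 9.07, and Kif13b read 6.52 and 6.90. Kif16b, an early endosome motor with a lipid-binding domain, read 7.21 and 7.61. Kif1c, linked to retrograde Golgi traffic and dense core vesicles, read 5.69 and 6.37 as the mean of 2 probe sets that differed by -0.68 each. Kif13b lay below the mark on both arrays, and so did the mean of Kif1c, though the brighter of its probe sets read 7.34 in unbound. Of the 7 kinesin-3 genes, counting the mitotic Kif14, only Kif1a had the higher value in TRAP.

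Kif21b and Kif21a, kinesin-4 motors that also restrain microtubule growth, stood farthest apart among the transport relatives compared here. Kif21b (probe set 10350247) read 8.31 in TRAP and 10.61 in unbound, 4.93-fold apart, with 1.31% of all genes lower. Kif21a read 10.20 and 10.05. The gap of 2.45 between their differences, 5.48-fold, was as large as that between the mitotic Kif2c and Kif2a. Unlike the mitotic kinesins, Kif21b and Kif1b were above the mark on both arrays, where 13.0% of genes and 2 of 14 transport kinesins were unbound-high.

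The C-terminal motors, which walk toward microtubule minus ends, did not reach 2-fold. Kifc2, expressed in neurons, read 9.84 in TRAP and 9.43 in unbound. Kifc3, an epithelial motor, read 7.51 in TRAP and differed by 0.01, the least of all kinesins as deposited but not under the other scalings, where it differed by 0.19 to 0.38. Kifc1 is not analysed here.

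Genes of cilia and hedgehog signalling had low values throughout. None of the 6 reached 2-fold, where 84.4% of all genes also lay within 2-fold. None had a TRAP value above the mark, the 6 values lying between 5.60 and 6.84. Kif7, which controls Gli factors at the tip of the primary cilium, read 6.84 in TRAP and 7.14 in unbound, and its 2 probe sets differed by -0.29 and -0.30. Kif24, a kinesin-13 motor that restrains cilium assembly from the mother centriole, had the lowest difference of the group with 5.74 against 6.58 (-0.84). Kif19a, which shortens motile cilia, read 6.68 and 7.20. Kif9, a motile cilium kinesin, had the highest with 6.78 against 6.20 (0.58), and Kif6 and Kif27 differed by 0.03 and 0.12. The signs of Kif7, Kif6 and Kif27 changed under at least 1 other scaling.

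Markers of multiciliated ependymal and choroid plexus cells, which carry motile cilia, are given beside this group. Of 10 markers, Ttr and Rsph4a were unbound-high, against 11.0% of all genes. In all 7 read higher in unbound and 3 in TRAP, and 7 were below the mark on both arrays. The part of these cells in the values of the cilium kinesins was not tested.

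Of the remaining genes, Kif26b and Kif26a, kinesin-11 proteins without ATPase motor activity that act in signalling, differed by -0.29 and 0.33. The 2 probe sets of Kif26b gave differences of -0.46 and -0.12, the widest disagreement of the 5 kinesins with more than 1 probe set. Kif12 read 5.88 and 5.39, below the mark on both arrays. Over all 787 genes with several probe sets, the median disagreement was 0.24 and its 90th percentile 0.98. This is no replicate error, and the differences of most transport kinesins are of that size.

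The partner genes of each kinesin class were compared next, from lists that name binding partners, light chains and the minus-end motor dynein. Of the spindle and cytokinesis partners 22 of 23 were unbound-high, none was TRAP-high, and the median difference was -2.17. The TRAP value was not above the mark in 16 of the 23, so their folds are uncertain, and 7 were above it on both arrays. Among all genes 11.0% were unbound-high and 4.58% TRAP-high, and the counts of the lists that follow are to be read against these shares. Named for their binding to a mitotic kinesin after their values were seen, Prc1, the midzone bundler that Kif4 follows, differed by -2.92, and Tpx2, which binds Kif11, by -2.44. Racgap1, which forms centralspindlin with Kif23, differed by -1.92, close to the -2.22 of Kif23. Cenpe, the kinesin-7 motor of kinetochores, chosen in the same way, differed by -2.32. Mad2l1, a spindle checkpoint protein, had the smallest difference, 8.33 in TRAP against 9.31 in unbound, and Ccnb2, a mitotic cyclin, the largest at -3.98.

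Of 21 light chains and cargo adaptors of transport kinesins, 2 were unbound-high and 1 TRAP-high, which is near the shares of all genes. Their median difference was 0.24, with 15 reading higher in TRAP. Fez2, a relative of the kinesin-1 adaptor Fez1, read 10.20 in TRAP and 8.38 in unbound, 3.52-fold apart. Sybu, the syntabulin that links kinesin-1 to syntaxin vesicles, read 9.68 and 8.70. At the other end Kidins220, a neurotrophin receptor scaffold, read 8.45 and 10.06, and Clstn1, a calsyntenin that binds kinesin light chains, read 8.36 and 9.61.

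Cytoplasmic dynein and dynactin, the machine of minus-end transport, had a median difference of 0.10 over 24 genes, with 4 unbound-high and none TRAP-high. Nde1, a dynein regulator of dividing progenitors, read 6.75 in TRAP and 9.02 in unbound, while its relative Ndel1, prominent in neurons and singled out after its value was seen, differed by 0.62 in the other direction. That gap of 2.89 was wider than the one between Kif21a and Kif21b. Hook3, a dynein activating adaptor, read 7.95 and 9.48. Dync1i1, the neuronal intermediate chain, read 10.05 and 9.11, and Dctn3, a dynactin subunit, read 11.72 and 10.77.

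Intraflagellar transport genes, whose trains are carried by kinesin-2, had 1 TRAP-high and no unbound-high gene of 21, with a median of -0.16. That gene was Ift57, a train subunit, with 11.45 in TRAP and 9.84 in unbound, 3.07-fold apart. Dync2li1 and Dync2h1, light intermediate and heavy chains of the retrograde motor, differed by 0.54 and -0.63. Ift80 had the lowest difference at -0.82.

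**Figure D3:**
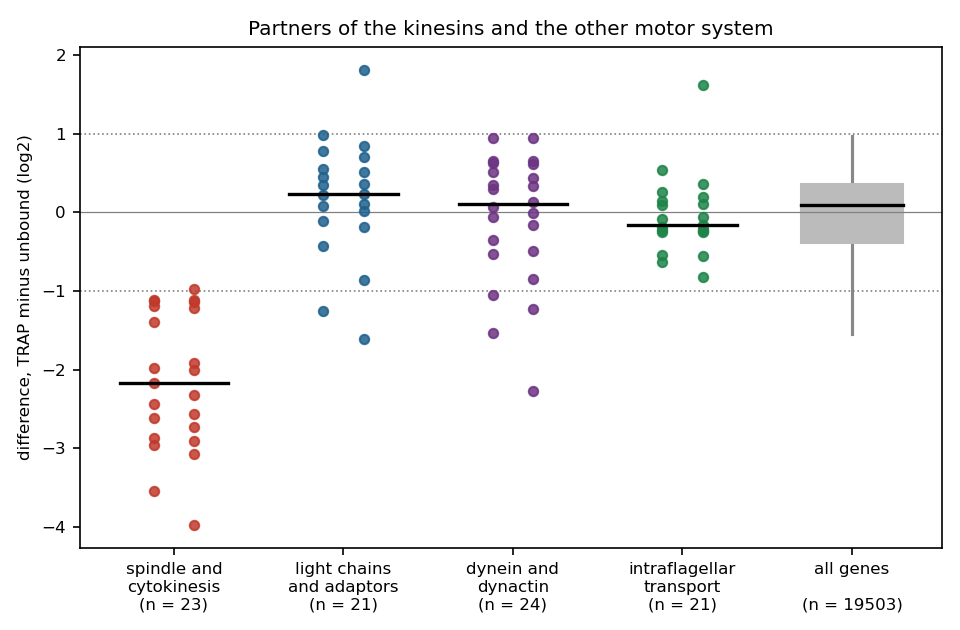
Difference between the arrays (TRAP minus unbound, log2) for genes that work with the kinesins, 1 point per gene with a black bar at the list's median; the grey box and line give the 25th to 75th and 5th to 95th percentiles of all 19503 genes, and dotted lines mark 2-fold. All 23 spindle and cytokinesis genes lie below 0 with a median of -2.17, and the other 3 lists have medians of 0.24, 0.10 and -0.16.

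Most markers of granule neurons, their progenitors and glia also read lower in TRAP, whereas all 10 Purkinje cell markers with a value read higher. The 8 granule neuron progenitor markers had a median difference of -1.40, and their summed unlogged level was 4023 in TRAP and 10395 in unbound. Of these 8, 4 were unbound-high. Mki67, a protein of cycling cells, read 7.75 against 10.15, and Mycn 10.10 against 10.14. Mki67, Ccnd1 and Ccnd2 in this list are general cell cycle genes, Ccnd2 being named after its value was seen. All of them are among the 4 unbound-high genes, so the likeness of the list to the mitotic kinesins is partly built in. Astrocyte and Bergmann glia markers (9 of 10 unbound-high, median -2.07) and oligodendrocyte lineage markers (8 of 9, median -1.93) also include cells that divide at this age. Markers listed for postmitotic granule neurons had 9 of 10 unbound-high and a median of -1.81. Whether each of them is confined to cells that no longer divide was not tested. Both fractions come from the same kind of preparation, so these differences do not count cells of a type. With no untagged control used here, RNA from tagged ribosomes and RNA of other cells carried over on the beads cannot be told apart. The part of each cell type in a kinesin's value was not tested.

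Genomic span was also set beside the values, because differences fell with span over all genes (Spearman rho -0.26 across 19463 genes). Across all 40 kinesins rho was -0.0749, across the 17 transport kinesins -0.51 and across the 12 mitotic kinesins 0.06. The median span was 46.6 kb for the transport and 37.5 kb for the mitotic group. These are descriptions across genes on the same pair of arrays, and the part of span was not tested.

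**Figure D4:**
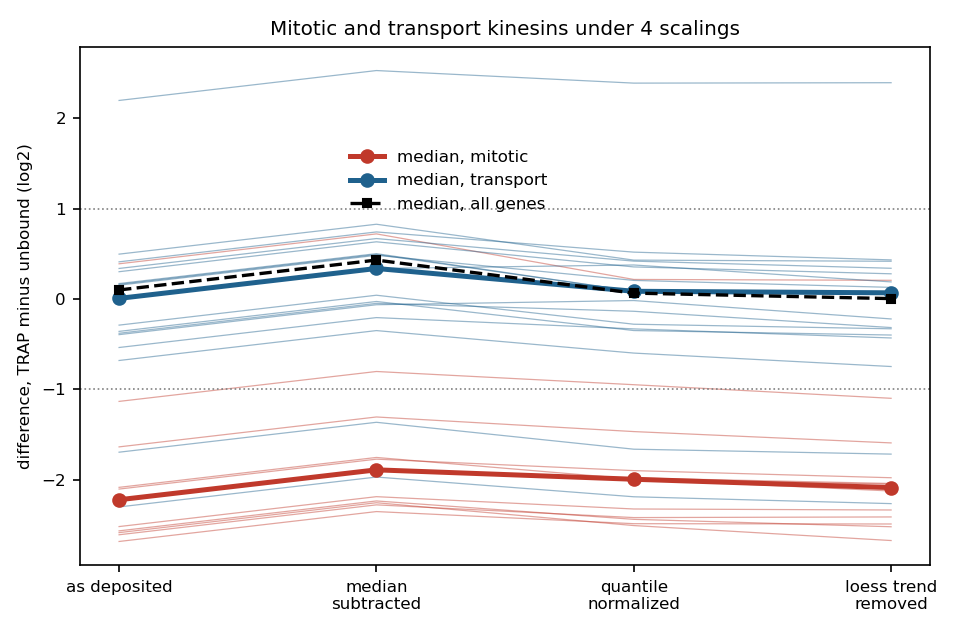
Difference between the arrays (TRAP minus unbound, log2) as deposited and under 3 other scalings, with thin lines for single mitotic (red) and transport (blue) kinesins, thick lines for the group medians and a dashed black line for the median of all genes; dotted lines mark 2-fold. The mitotic median lies between -2.22 and -1.89 and the transport median between 0.01 and 0.34; subtracting the array medians raises all medians by the same 0.33, that of all genes from 0.10 to 0.43.

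The letter patterns were counted over the whole promoter windows. CHR letters stood in 9 of the 11 mitotic kinesins with a window, in 1 of 11 transport kinesins, and in 20.2% of 17491 protein-coding genes. A CCAAT box stood in 7 mitotic and 3 transport kinesins, against 42.3% of all, and both patterns in 6 mitotic and no transport kinesins, against 8.22%. Of the 5 cilium and hedgehog kinesins with a window, 2 held CHR letters, 3 a CCAAT box and 2 both, so the patterns were not particular to the mitotic group. Kif1a is the transport kinesin with CHR letters, in 1 of its 2 windows. The windows follow annotated starts, and whether each start is used in the cerebellum was not tested. Among the spindle and cytokinesis partners, 15 of 20 genes with a window held CHR letters and 13 held both.

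Position was then counted, in a window chosen after the matches were seen. CHR letters beginning within 30 bases of the start, on either side, were found in 7 of 11 mitotic kinesins (Kif4, Kif11, Kif15, Kif18b, Kif20b, Kif22 and Kif23), in no transport kinesin, and in 3.35% of all protein-coding genes. Kif14 and Kif2c held the letters farther upstream, beginning 228 and 103 bases before the start, and Kif18a and Kif2b had no match in the window. Kif18a, without a match, read 4.24-fold higher in unbound. Outside the mitotic group, Kif24 and Kif26b had CHR letters near the start, and their differences were -0.84 and -0.29. A match describes letters only and shows no binding.

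**Figure D5:**
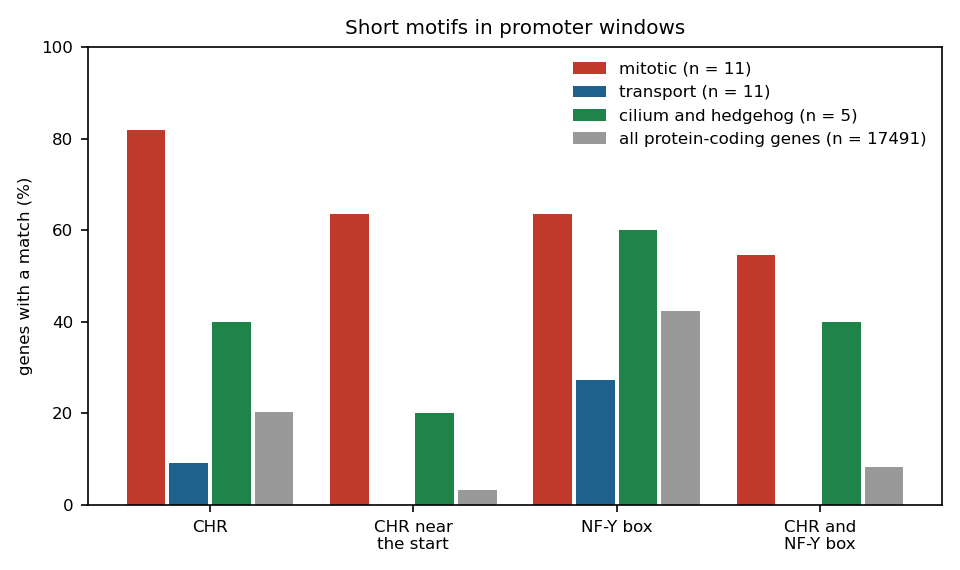
Share of genes (%) whose RefSeq promoter window holds the CHR letters anywhere, the CHR letters beginning within 30 bases of the start, the box known for binding NF-Y, or both CHR and that box, for mitotic, transport, and cilium and hedgehog kinesins and all protein-coding genes. The mitotic bars are the tallest in every class, with 7 of 11 genes near the start where all protein-coding genes have 3.35%. For the NF-Y box alone the mitotic share (63.6%) is close to that of the cilium and hedgehog kinesins (60%).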

How the data were processed

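The deposited table holds log2 expression values for 22097 probe sets on 2 arrays, which the authors deposited. The submitters' processing notes name Affymetrix Power Tools, with no version, and for the background correction, normalization and summary the method is not given in the sources used here. Log2 was inferred from the range of the values, since no log base is named. Probe sets were named by the platform annotation: 20999 name 1 gene, 91 that name several were not used, and 1007 have no name here. Probe sets of a gene were averaged, giving 19503 genes, and all measured kinesins entered with no filter. RefSeq (GRCm38.p6) supplied gene types, spans and promoter windows, and no coordinates are given for the array values.

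With 1 array per fraction no test was run, and the number of arrays limits the precision. Counts of kinesins and their partners at least 2-fold apart are read against the same share of all genes. The members, roles and lists were chosen with earlier results of these data known. All members could be named, with Pcp2, Rpl10a and the 2 highest and 2 lowest genes of each list; others are said to be chosen after their values were seen. Alternatives were the subtraction of array medians, quantile normalization, removal of a loess trend (span 0.3, statsmodels 0.14.6), 3 floors at 7.08, the brightest probe set, 3 role assignments, and thresholds of 1.5-fold and 4-fold. The counting was tested on simulated data.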

Additional observations from a re-analysis of the deposited data

How the results depend on the processing

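Of the 12 mitotic kinesins, 10 were unbound-high after quantile normalization or subtraction of the array medians, and 11 after removal of the loess trend. Among all genes, 8.60% were unbound-high after quantile normalization, 6.80% with the array medians subtracted and 10.1% after the loess trend was removed. The mitotic and transport medians were -1.89 and 0.34 with the array medians subtracted, -1.99 and 0.0848 after quantile normalization (gap -2.08), and -2.09 and 0.0678 after the loess trend was removed (gap -2.16). A floor at 7.08 on at least 1 array gave -2.23 and 0.15 (gap -2.38). A floor on the mean level kept 5 mitotic kinesins, all 5 unbound-high, with medians of -2.52 and 0.15 (gap -2.67). Of the 22 kinesins kept, 7 were unbound-high, and the share of all genes under that floor is not given here. Mitotic kinesins pass either floor through their unbound values alone, so these counts and wider gaps are partly set by the floor and add no support. A floor on both arrays kept no mitotic kinesin, so their count was 0 and no median could be had. It kept 14 transport kinesins with a median of 0.0791, left 2 kinesins unbound-high and 0 TRAP-high, since Kif17 drops out, and fewer genes enter under each floor. The transport median changed sign, to -0.29 (gap -1.93), with 1 gene unbound-high, when the group held only the 13 kinesin-1, kinesin-2 and kinesin-3 genes, because Kifc2, Kifc3, Kif21a and Kif21b leave it. Counting Kif2a as mitotic gave a gap of -2.22, and leaving out Kif2b a mitotic median of -2.23. At 4-fold, 1 transport kinesin was ahead in unbound. Over all 40 genes, 33 kept their sign under every scaling and with the brightest probe set, among them all 12 mitotic kinesins and 16 of 17 transport kinesins. No paired analysis was possible because each fraction has 1 array. No detection limit is known for a probe set, so differences with a value below 7.08 are the least certain.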
